A study of Mus musculus with 2 samples.

Results

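The 10 genes described here encode ligands, receptors, a modifying enzyme and targets of Notch signalling, and were taken by symbol from the 32285 genes of the count tables. They are the ligands Jag1, Jag2, Dll1 and Dll4, the receptors Notch1, Notch2 and Notch4, the glycosyltransferase Lfng, and the targets Hes1 and Nrarp. All 10 symbols were found, and each was summed per annotated cell class and genotype. Single cells from livers of mice at postnatal day 15 were sorted by flow cytometry and captured in droplets, with 1 c-Maf KO library and 1 control library. Each library pooled 1 male and 1 female mouse and held endothelial and hematopoietic cells. The sample titles place the c-Maf KO in the endothelium. The sources used here give neither the driver of the deletion, nor the deleted part of Maf, nor the genotype of the control animals. With 1 library per genotype there is no replicate, so no test was possible and every interval below covers counting error only. Nor can a difference between genotypes be told apart from a difference between the pooled mice.

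Notch receptors are single-pass membrane proteins that are activated by ligands on a neighbouring cell. Ligand pulling exposes the receptor to ADAM proteases and then to the gamma-secretase complex, and the freed intracellular domain joins RBPJ in the nucleus to switch on genes such as Hes1 and Nrarp. Fringe enzymes, of which Lfng is one, add a sugar to the receptor that favours activation by Delta-like ligands over Jagged ligands. In vessels, Dll4 and Notch1 restrain tip cell formation during sprouting, and in the liver Notch signalling between portal cells and their neighbours shapes bile ducts and vessels.

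The members lie on 6 chromosomes of the GRCm38 (mm10) build in the GENCODE annotation. Jag1 is at chr2:137081456-137116644, Dll4 at chr2:119325784-119335962, Notch1 at chr2:26457903-26516663 and Nrarp at chr2:25180758-25183339. Dll1 is at chr17:15367354-15376872 and Notch4 at chr17:34564268-34588503. Jag2 is at chr12:112907819-112929776, Notch2 at chr3:98013527-98150361, Hes1 at chr16:30064384-30067796 and Lfng at chr5:140607320-140615545. The promoter windows of Lfng and Nrarp are shown because, of the 4 members called in endothelial cells, these hold the most UMIs, and they differed in opposite directions. Both windows come from RefSeq on GRCm38.p6, span 300 bases around the annotated transcript start, and read 5′ to 3′ on the plus strand. Capitals mark the RBPJ core TGGGAA, searched on both strands, and where it stands in the longer form GTGGGAA, that whole form.
Lfng, chr5:140607091-140607390: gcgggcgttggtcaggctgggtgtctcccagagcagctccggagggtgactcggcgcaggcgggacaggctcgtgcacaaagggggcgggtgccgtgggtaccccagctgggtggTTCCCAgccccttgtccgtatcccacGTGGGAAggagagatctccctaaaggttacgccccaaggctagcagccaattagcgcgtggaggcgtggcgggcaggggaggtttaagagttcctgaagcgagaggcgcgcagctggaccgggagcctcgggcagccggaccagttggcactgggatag
Nrarp, chr2:25180508-25180807: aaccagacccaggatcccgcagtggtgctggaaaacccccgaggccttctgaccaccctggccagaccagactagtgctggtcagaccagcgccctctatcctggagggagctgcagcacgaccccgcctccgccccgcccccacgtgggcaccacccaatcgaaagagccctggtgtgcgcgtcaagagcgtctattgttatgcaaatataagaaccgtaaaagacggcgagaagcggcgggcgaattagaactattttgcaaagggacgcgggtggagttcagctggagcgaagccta
The Lfng window held TGGGAA on the minus strand at -135 and on the plus strand at -108 from the transcript start. The plus-strand match is part of the longer form GTGGGAA. The Nrarp window held neither. RefSeq windows were matched for 9 of the 10 members, 10 windows in all because Dll1 has 2, and the Lfng window was the 1 of the 10 with TGGGAA. Of 32851 mouse promoter windows of the same length, 25.6% held TGGGAA and 6.38% held GTGGGAA. The core letters of Maf recognition elements, TGCTGA, stood in 0 of the 10 windows and in 19.5% of all windows. A match is a run of letters in a window, not a bound site.

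The tables held 60281713 UMIs (unique molecular identifiers, 1 per captured transcript) in 9058 c-Maf KO barcodes and 54143192 UMIs in 9038 control barcodes. The authors annotated 8166 c-Maf KO and 7669 control cells, and 21 of these barcodes occurred in both libraries. Endothelial cells numbered 2991 in the c-Maf KO library and 2948 in the control library. They comprised 2448 c-Maf KO and 2803 control cells of the sinusoidal clusters (S, S2, KOS_1, KOS_2 and KOS_3), 408 and 89 of C-EC, and 135 and 56 of PV, again c-Maf KO before control. Median depth was 7320 UMIs per c-Maf KO endothelial cell and 4985.5 per control endothelial cell. Levels are given as counts per 1000000 UMIs of the summed cells (CPM), and ratios as the c-Maf KO level over the control level on a log2 scale. In place of a test, a size rule was used: a gene is called where the 2 levels lie 1.5-fold or more apart, the interval of the ratio leaves out 0 on the log2 scale, and both sums together hold 50 UMIs or more. Maf itself stood at 162 CPM in c-Maf KO endothelial cells and at 2070.1 CPM in control cells. Pan-endothelial markers summed to 4457 CPM in c-Maf KO and 5722 CPM in control endothelial cells, with 1 of 6 lower. Most other marker lists differed between the genotypes in the endothelial cells. All 7 sinusoidal markers were lower (2949 against 10778 CPM summed), all 5 large vessel markers higher (2474 against 160.4 CPM), all 10 cycling markers higher (751 against 249.8 CPM) and all 6 Kupffer markers lower (28.0 against 289 CPM). Hepatocyte markers were lower too (7 of 8, 61.8 against 177 CPM), B lineage markers higher (5 of 6, 120 against 51.7 CPM), and 4 of 10 stellate and mural (18.3 against 47.7 CPM) and 4 of 6 erythroid markers (71.3 against 140 CPM) lower. In these 8 lists, the markers at 0 were 1 stellate and mural and 1 erythroid marker in c-Maf KO cells. The 10 arterial markers did not share the direction of the large vessel markers. Their sum was 1062 CPM in c-Maf KO and 1108 CPM in control endothelial cells. Gja5 (log2 ratio 0.94), Cxcr4 (0.92) and Bmx (0.69) were called higher, whereas Gja4 (-0.99) and Unc5b (-0.98) were called lower.

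In all endothelial cells, 2 of the 10 members were called higher in the c-Maf KO library (Jag2 and Nrarp) and 2 were called lower (Dll1 and Lfng). The same size rule called 14.2% of all 11927 tested genes higher and 15.5% lower. The members' median log2 ratio was 0.02, against -0.08 over all tested genes. The members had no common direction, with 5 ratios above 0 and 5 below. In the sinusoidal clusters alone the same 4 genes were called, where the size rule called 13.4% of 11519 genes higher and 15.4% lower. With the control mix of sinusoidal, C-EC and PV cells applied to both libraries, the log2 ratios were 2.33 for Jag2, 1.18 for Nrarp, -1.61 for Dll1 and -2.25 for Lfng. Without cells rich in other cells' transcripts they were 2.17 for Jag2, 1.23 for Nrarp, -1.55 for Dll1 and -2.26 for Lfng. The cut for such cells was set within each library and removed 299 c-Maf KO and 295 control cells. A difference between the libraries in such transcripts could therefore remain. Without cells with a cycling marker the log2 ratios were 2.54 for Jag2, 1.26 for Nrarp, -1.02 for Dll1 and -1.98 for Lfng. Those were cells with a UMI of any of the 10 cycling markers, 1364 in c-Maf KO and 563 in control. That filter thus also depends on depth and took unequal numbers. All 4 calls were kept in each case, although no interval was computed for the control mix.

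**Figure D1:**
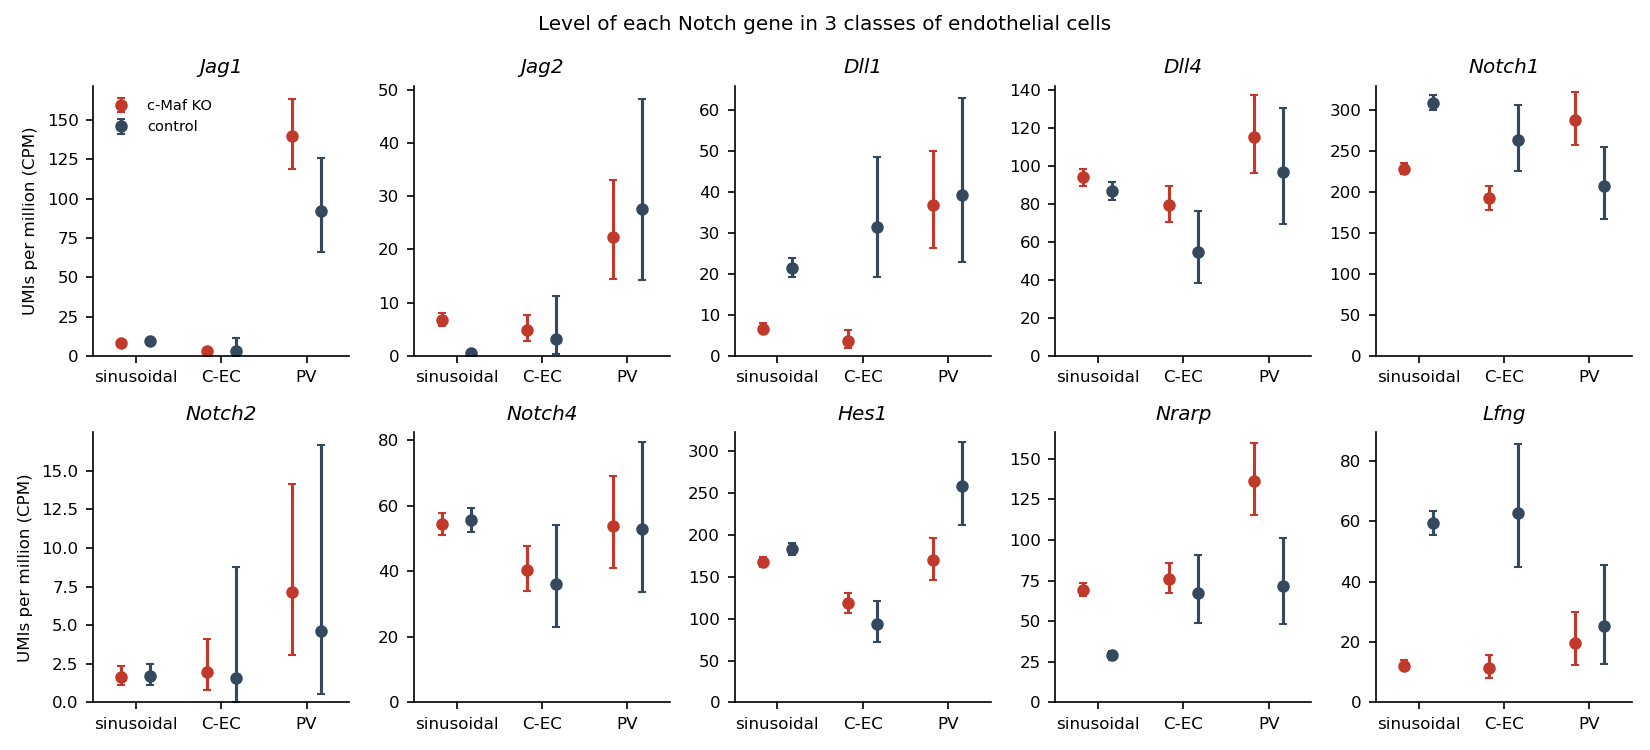
Level of each of the 10 Notch genes in CPM (y axis, linear from 0, own scale per gene) in sinusoidal, C-EC and PV cells, with c-Maf KO in red and control in blue and bars for exact Poisson 95% intervals. Lfng and Dll1 sit lower in c-Maf KO than in control sinusoidal and C-EC cells, Nrarp sits higher in c-Maf KO sinusoidal and PV cells, and Jag1 and Jag2 are highest in PV cells.

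Among the ligands, Jag2 and Dll1 were called in opposite directions in endothelial cells, and Jag1 and Dll4 were not called. Jag2, a Jagged ligand, stood at 7.25 CPM in c-Maf KO cells (164 UMIs in 144 cells) and at 1.42 CPM in control cells (23 UMIs in 19 cells), a log2 ratio of 2.33 (95% interval 1.72 to 3.05). The gap was wider in the sinusoidal clusters, at 6.78 CPM in c-Maf KO and 0.593 CPM in control cells, the second value on 9 UMIs (log2 ratio 3.44, interval 2.54 to 4.68). The c-Maf KO cluster KOS_3 reached 11.1 CPM. In PV cells Jag2 stood at 22.4 CPM in c-Maf KO and 27.6 CPM in control cells, on 37 UMIs in all, and these intervals overlapped. The PV cells thus held the highest Jag2 in both libraries, and the genotypes differed where Jag2 was lowest in the control. Jag2 remained a low transcript in the c-Maf KO, detected in 4.81% of endothelial cells against 0.645% in the control. In B1, a B lineage cluster where the gene was near absent, it was detected in 0.359% of c-Maf KO cells (median depth 2878.5 UMIs) and in 0 of 295 control cells (3232 UMIs), which allows a share of up to 1.02%. B lineage cells as a whole held 1.85 CPM of Jag2 in c-Maf KO and 1.01 CPM in control, near the control endothelial level. Neutrophils had 1 Jag2 UMI in c-Maf KO and 0 in control. With each cell thinned to 1128 UMIs, which left out 231 c-Maf KO and 363 control endothelial cells, the endothelial shares were 0.942% and 0.155%, c-Maf KO first.

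Dll1, a Delta-like ligand, stood at 7.65 CPM in c-Maf KO endothelial cells (173 UMIs) and at 22.2 CPM in control cells (361 UMIs), a log2 ratio of -1.54 (interval -1.81 to -1.27). Sinusoidal cells held 6.61 CPM in c-Maf KO and 21.4 CPM in control. In C-EC, the cluster with cycling markers, 13 UMIs gave 3.71 CPM in c-Maf KO cells and 20 UMIs gave 31.4 CPM in control cells. Those 33 UMIs fell under the minimum of 50, so no call was made there. In PV cells the values were 36.7 CPM in c-Maf KO and 39.2 CPM in control (log2 ratio -0.12, interval -0.94 to 0.82). The call in the sinusoidal class did not extend to its shared clusters, where the intervals overlapped: S held 15.9 CPM in c-Maf KO and 16.98 CPM in control cells, and S2 18.5 and 22.7 CPM. Among the endothelial clusters of the c-Maf KO library the level ran from 0.823 CPM in KOS_2, on 1 UMI, to 36.7 CPM in PV. After thinning, Dll1 was detected in 0.906% of c-Maf KO and 2.55% of control endothelial cells.

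Jag1, the ligand of portal vessels and the gene of Alagille syndrome in humans, stood at 13.7 CPM in c-Maf KO and 11.2 CPM in control endothelial cells (log2 ratio 0.29, interval 0.03 to 0.57). It was concentrated in PV, where it reached 139.6 CPM in c-Maf KO cells (156 UMIs) and 92.1 CPM in control cells (40 UMIs). The sinusoidal clusters held 8.06 CPM in c-Maf KO and 9.23 CPM in control. The control mix of classes brought the endothelial log2 ratio to 0.02. Leaving out cells with a cycling marker, 1364 in c-Maf KO and 563 in control, brought it to 0.72, which passed the size rule. Dll4, the Delta-like ligand of sprouting vessels, stood at 92.8 CPM in c-Maf KO and 85.8 CPM in control endothelial cells (log2 ratio 0.11, interval 0.01 to 0.21). Its highest level was 139.98 CPM in KOS_3 and its lowest endothelial level 54.3 CPM in KOS_2, both c-Maf KO clusters. Outside the endothelium Dll4 never exceeded 12.9 CPM, in control Kupffer cells, among clusters with at least 50 cells and with clusters D and H left out.

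No receptor was called in endothelial cells. Notch1 stood at 226 CPM in c-Maf KO cells (5108 UMIs) and at 304 CPM in control cells (4943 UMIs). Its log2 ratio of -0.43 (interval -0.49 to -0.37) lay below equality but short of 1.5-fold. Notch1 was detected in 64.1% of c-Maf KO and 61.1% of control endothelial cells, and in 20.4% and 25.9% after thinning. Notch4, a receptor typical of endothelium, stood at 52.2 CPM in c-Maf KO and 54.7 CPM in control cells (log2 ratio -0.07, interval -0.19 to 0.06). Notch4, like Dll4, was highest in KOS_3, at 102.8 CPM. Notch2, the receptor of developing bile ducts, was near absent from the endothelium, at 1.99 CPM in c-Maf KO cells (45 UMIs) and 1.79 CPM in control cells (29 UMIs). Its intervals overlapped, and a difference was not detectable at this depth.

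Lfng showed the largest fold among the members that were lower. It stood at 12.4 CPM in c-Maf KO endothelial cells (281 UMIs) and at 58.5 CPM in control cells (950 UMIs), a log2 ratio of -2.23 (interval -2.43 to -2.04). The sinusoidal values were 12.2 CPM in c-Maf KO and 59.3 CPM in control (log2 ratio -2.28, interval -2.50 to -2.07). In C-EC, 40 UMIs gave 11.4 CPM in c-Maf KO cells and 40 UMIs gave 62.7 CPM in control cells (log2 ratio -2.46, interval -3.13 to -1.79). In PV, 19.7 CPM in c-Maf KO and 25.3 CPM in control rested on 33 UMIs, and the intervals overlapped. The control PV level was thus closer to the c-Maf KO levels than to the control capillary levels. Lfng was detected in 8.09% of c-Maf KO and 22.01% of control endothelial cells, and in 1.52% and 5.49% after thinning. In B1 the thinned shares were 0 of 1106 c-Maf KO cells, which allows up to 0.271%, and 0.341% of control cells. B1 lay at the low end outside the endothelium. B lineage cells as a whole held 8.68 CPM of Lfng in c-Maf KO and 11.1 CPM in control. Neutrophils held 25.8 and 28.3 CPM, above the c-Maf KO endothelial level. Lfng carries the RBPJ core letters printed above, and its relatives Mfng and Rfng are described among the other pathway genes.

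Of the targets, Nrarp was called and Hes1 was not. Nrarp, a target that feeds back on Notch signalling, stood at 73.6 CPM in c-Maf KO endothelial cells (1666 UMIs) and at 31.6 CPM in control cells (513 UMIs), a log2 ratio of 1.22 (interval 1.08 to 1.37). It was detected in 33.5% of c-Maf KO and 13.9% of control endothelial cells, and in 6.59% and 3.52% after thinning. The thinned share in B1 was 0.0904% in c-Maf KO and 0.341% in control cells. Other hematopoietic cells held more: 11.8 CPM in c-Maf KO and 12.3 CPM in control cells of cluster C1. T and cytotoxic cells held 8.85 and 5.86 CPM and neutrophils 2.12 and 1.57 CPM, c-Maf KO first. Sinusoidal cells held 69.3 CPM in c-Maf KO and 28.9 CPM in control, and PV cells 136 CPM in c-Maf KO and 71.4 CPM in control. In C-EC the levels were 76.1 CPM in c-Maf KO and 67.4 CPM in control (log2 ratio 0.16, interval -0.29 to 0.67). The control C-EC level was close to that of c-Maf KO sinusoidal cells, and a difference within C-EC was not detectable at this depth. Hes1, a transcriptional repressor and widely used Notch readout, stood at 160.0 CPM in c-Maf KO and 182 CPM in control endothelial cells (log2 ratio -0.18, interval -0.25 to -0.11), which was no call.

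By class, the members' calls differed, although the differences between classes were not tested. In C-EC 6 of the 10 members had at least 50 UMIs, and 1 of them, Lfng, was called lower while none was called higher. The size rule called 5.7% of 7961 C-EC genes higher and 14.6% lower. In PV 7 of the 10 had at least 50 UMIs, with Jag1 (log2 ratio 0.59, interval 0.09 to 1.14) and Nrarp (0.91, interval 0.37 to 1.54) called higher and Hes1 (-0.60, interval -0.95 to -0.25) called lower. The size rule called 6.08% of 5063 PV genes higher and 6.26% lower. Hes1 in PV stood at 170.1 CPM in c-Maf KO cells and at 258 CPM in control cells. Jag1 and Hes1 lie near 1.5-fold, and their calls depend on the settings: Jag1 had a log2 ratio of 0.23 without the 8 c-Maf KO and 13 control PV cells that carry other cells' markers, and Hes1 had -0.56 without likely doublets. Large vessel markers were higher in c-Maf KO PV cells (3 of 5, 4845 CPM summed against 2091 CPM in control), and of 7 sinusoidal markers 3 were lower and 1 higher (1197 against 1269 CPM). Stellate and mural markers summed to 286 CPM in c-Maf KO and 894 CPM in control PV cells, with 2 of 10 lower. Hepatocyte markers summed to 108 and 774 CPM (1 of 8 lower), and cholangiocyte markers to 253 and 219 CPM (1 higher, 1 lower of 6), again c-Maf KO first. Of the handling response genes, which include the immediate-early genes, 2 of 10 were lower in c-Maf KO PV cells (4184 CPM summed, against 5358 CPM in control). Their part in the PV calls was not tested beyond the cell removal above.

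**Figure D2:**
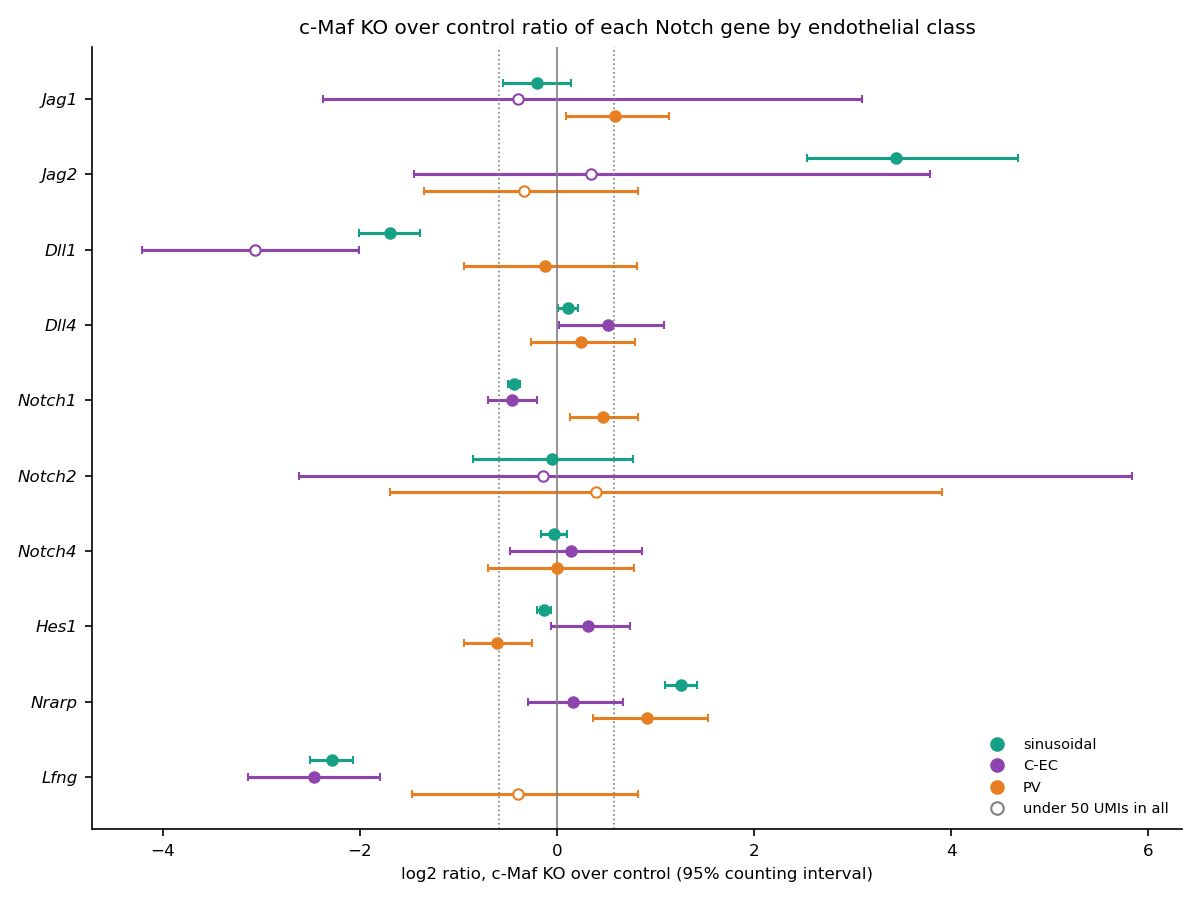
Ratio of the c-Maf KO to the control level on a log2 scale (x axis) for each of the 10 Notch genes (rows) in sinusoidal, C-EC and PV cells, with exact 95% counting intervals, open circles for fewer than 50 UMIs in all and dotted lines at 1.5-fold. Lfng lies at -2.28 in sinusoidal and -2.46 in C-EC cells, and Jag2 at 3.44 in sinusoidal cells alone.

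The c-Maf KO library also held 336 cells of clusters S and S2, which the authors named as in the control and which retained Maf at 1732 CPM. They offer a comparison inside 1 library with the 2112 cells of KOS_1 to KOS_3, where Maf stood at 9.83 CPM, and with 2779 control cells of S and S2, where it stood at 2158 CPM. The clusters were made from all genes of these cells, so the values are a description. Lfng stood at 8.71 CPM in KOS_1 to KOS_3, at 41.3 CPM in c-Maf KO S and S2 cells and at 59.5 CPM in control S and S2 cells. Nrarp stood at 73.8, 31.9 and 29.0 CPM in the same order of cells. Dll1 stood at 5.35, 17.2 and 21.4 CPM in that order. For these genes the Maf-retaining cells of the c-Maf KO library lay nearer to the control cells than to the other cells of their own library. Jag2 stood at 7.34, 2.09 and 0.596 CPM, of which the middle value rested on 4 UMIs and the last on 9. Dll4 was lowest in the Maf-retaining cells, at 65.3 CPM, against 97.4 CPM in KOS_1 to KOS_3 and 86.9 CPM in control S and S2 cells. Notch1 stood at 221 CPM in KOS_1 to KOS_3, 290.3 CPM in c-Maf KO S and S2 cells and 309.6 CPM in control S and S2 cells. Hes1, like Dll4, was lowest in the Maf-retaining cells, at 143 CPM, against 170 CPM in KOS_1 to KOS_3 and 183 CPM in control S and S2 cells. For Jag1, Notch2 and Notch4 the intervals of all these cells overlapped.

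The mix of S and S2 differed, with 223 S and 113 S2 cells in the c-Maf KO library against 1320 and 1459 in the control. The members themselves differed between S and S2. In the control Lfng stood at 33.7 CPM in S and 67.0 CPM in S2, Hes1 at 107 and 206 CPM, and Notch1 at 195 and 343 CPM. Within S, Lfng stood at 35.0 CPM in c-Maf KO and 33.7 CPM in control cells, and within S2 at 47.3 CPM in c-Maf KO and 67.0 CPM in control cells. Lfng intervals overlapped between the libraries within S. They ran from 34.7 to 63.1 CPM in c-Maf KO and from 62.4 to 71.9 CPM in control S2 cells. Of the 3 KOS clusters, KOS_2 was shallow (median 1644.5 UMIs per cell) and lowest for Dll1, Dll4, Notch1, Notch4 and Lfng among all endothelial clusters.

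**Figure D3:**
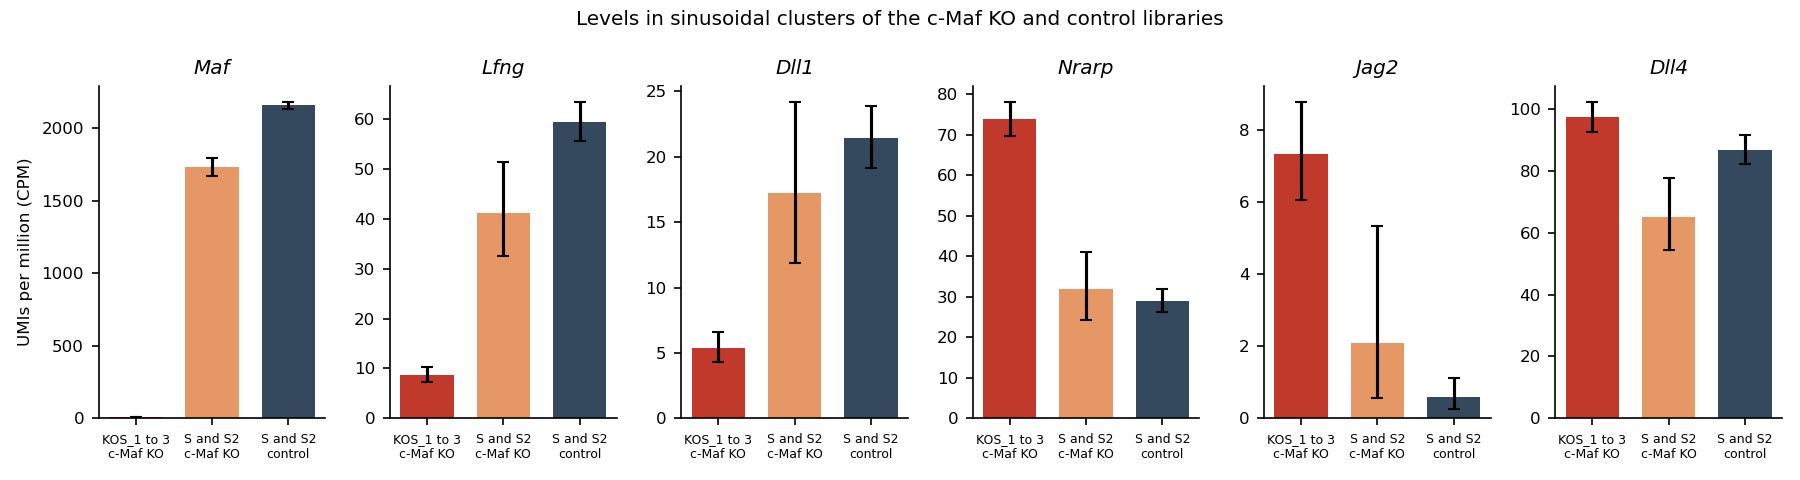
Levels in CPM (bars from 0, own scale per gene, with exact Poisson 95% intervals) of Maf, Lfng, Dll1, Nrarp, Jag2 and Dll4 in c-Maf KO clusters KOS_1 to KOS_3, c-Maf KO clusters S and S2, and control clusters S and S2. Lfng and Dll1 are lowest and Nrarp and Jag2 highest in KOS_1 to KOS_3, and the Maf-retaining c-Maf KO cells sit near the control for Lfng, Dll1 and Nrarp.

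Each library held cells of a female and a male mouse. Cells with an Xist UMI and no UMI of a Y-linked gene are called female-type here, and cells with the opposite pattern male-type. The c-Maf KO endothelium held 1692 and 328 such cells, female-type first, and the control endothelium 772 and 846. These are single mice and not replicates, and sex and animal cannot be told apart. In the female-type cells the log2 ratio was -2.05 for Lfng, -1.83 for Dll1 and 1.25 for Nrarp. The male-type cells gave -2.30 for Lfng, -0.90 for Dll1 and 0.80 for Nrarp, and each of the 3 was called in both types. The size rule called 11.7% of 11227 genes higher and 13.6% lower among female-type cells, and 14.2% of 9707 genes higher and 23.2% lower among male-type cells. Jag2 was called among the female-type cells (1.47), while its value among the male-type cells (3.71) rested on 36 c-Maf KO and 5 control UMIs, under the minimum. Jag1 was called higher among the male-type cells (0.83) but not among the female-type cells (-0.07). Hes1 took opposite signs, 0.29 for the female-type cells and -0.85 for the male-type cells. Female-type cells held 174 CPM of Hes1 in c-Maf KO and 142 CPM in control, and male-type cells 132 CPM in c-Maf KO and 239 CPM in control. Handling response genes summed to 2363 CPM in c-Maf KO and 3631 CPM in control female-type cells, and to 2337 CPM in c-Maf KO and 1821 CPM in control male-type cells. Their part in the Hes1 values was not tested.

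Clusters with at least 50 cells in a library gave 11 endothelial and 25 other cluster-library units, with clusters D and H left out. Across these units most members differed in median by cell type. Jag1, Jag2, Dll1, Dll4, Notch4 and Nrarp had medians of 7.43, 4.12, 16.98, 79.5, 53.0 and 63.4 CPM over endothelial units. Over the other units their medians were 0.524, 0.467, 0.453, 1.61, 1.45 and 2.998 CPM. Notch2 went the other way, with medians of 1.71 CPM over endothelial and 23.2 CPM over other units. The ranges overlapped for Jag1, Jag2, Dll1, Notch2 and Notch4, but not for Dll4 and Nrarp. Control Leukocytes_2 held 10.4 CPM of Jag2 and 36.4 CPM of Notch4, which stood at 33.7 CPM in KOS_2. T-Gzm held 7.83 CPM of Jag1 in c-Maf KO and 18.1 CPM of Dll1 in control. Notch1 was highest in control S2 cells (343 CPM) and lowest in control Leukocytes_2 (7.80 CPM). Hes1 reached 145 CPM in c-Maf KO cells of CLP, an early B lineage cluster, where control cells held 113 CPM and the intervals overlapped. Lfng was high outside the endothelium too, at 71.8 CPM in c-Maf KO and 90.1 CPM in control Kupffer cells and at 72.8 and 77.4 CPM in T and cytotoxic cells. In neither type was Lfng called, with log2 ratios of -0.32 (interval -0.74 to 0.06) in Kupffer cells and -0.09 (interval -0.27 to 0.10) in T and cytotoxic cells.

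A few members were called in hematopoietic cells, 1 of the 4 with at least 50 UMIs in Kupffer cells, 2 of 6 in T and cytotoxic cells and 1 of 4 in Leukocytes_1. Notch2 was higher in Kupffer cells, at 53.3 CPM in 193 c-Maf KO cells (49 UMIs) and 23.9 CPM in 766 control cells (76 UMIs), a log2 ratio of 1.16 (interval 0.61 to 1.69). Of 7756 tested genes, 4.45% were called higher and 6.61% lower in Kupffer cells. Kupffer markers in these cells summed to 16739 CPM in c-Maf KO and 20264 CPM in control, with 1 of 6 lower, and neutrophil markers to 476 and 152 CPM, with 2 of 6 higher. Neutrophils held 50.5 CPM of Notch2 in c-Maf KO and 43.0 CPM in control, and the part of neutrophil transcripts in the Kupffer value was not tested. In T and cytotoxic cells 1 member was called higher and 1 lower, where the size rule called 2.45% of 9808 genes higher and 3.13% lower. Hes1 was higher, at 19.0 CPM in c-Maf KO and 11.97 CPM in control (log2 ratio 0.67), and 9 of 10 cycling markers were higher too. The difference lay in T-Foxp3, at 27.7 CPM in c-Maf KO and 9.12 CPM in control cells. In T-Gzm the levels were 16.97 CPM in c-Maf KO and 22.2 CPM in control, and in T-Cd6 2.46 and 4.38 CPM, with overlapping intervals. Dll1 was lower in T and cytotoxic cells, at 2.95 CPM in c-Maf KO and 7.39 CPM in control (log2 ratio -1.29). Most of these UMIs lay in T-Gzm, where 10.4 CPM in c-Maf KO cells and 18.1 CPM in control cells had overlapping intervals. All 7 sinusoidal markers were lower in T and cytotoxic cells as well (81.7 CPM summed in c-Maf KO, 356 CPM in control), and their part was not tested. Hes1 was lower in Leukocytes_1, at 26.7 CPM in c-Maf KO and 49.6 CPM in control (log2 ratio -0.89, interval -1.39 to -0.40), where 1.99% of 7242 genes were called higher and 2.8% lower. There 5 of 7 sinusoidal markers were lower (155 CPM summed in c-Maf KO, 334 CPM in control), as were 5 of 6 Kupffer markers (185 against 387 CPM), while 3 of 6 neutrophil markers were higher (6661 against 3619 CPM), and their part was not tested. Of the 4 members with at least 50 UMIs in B lineage cells (Notch1, Notch2, Hes1 and Lfng), none was called, where the size rule called 7.54% of 9864 genes higher and 3.77% lower.

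**Figure D4:**
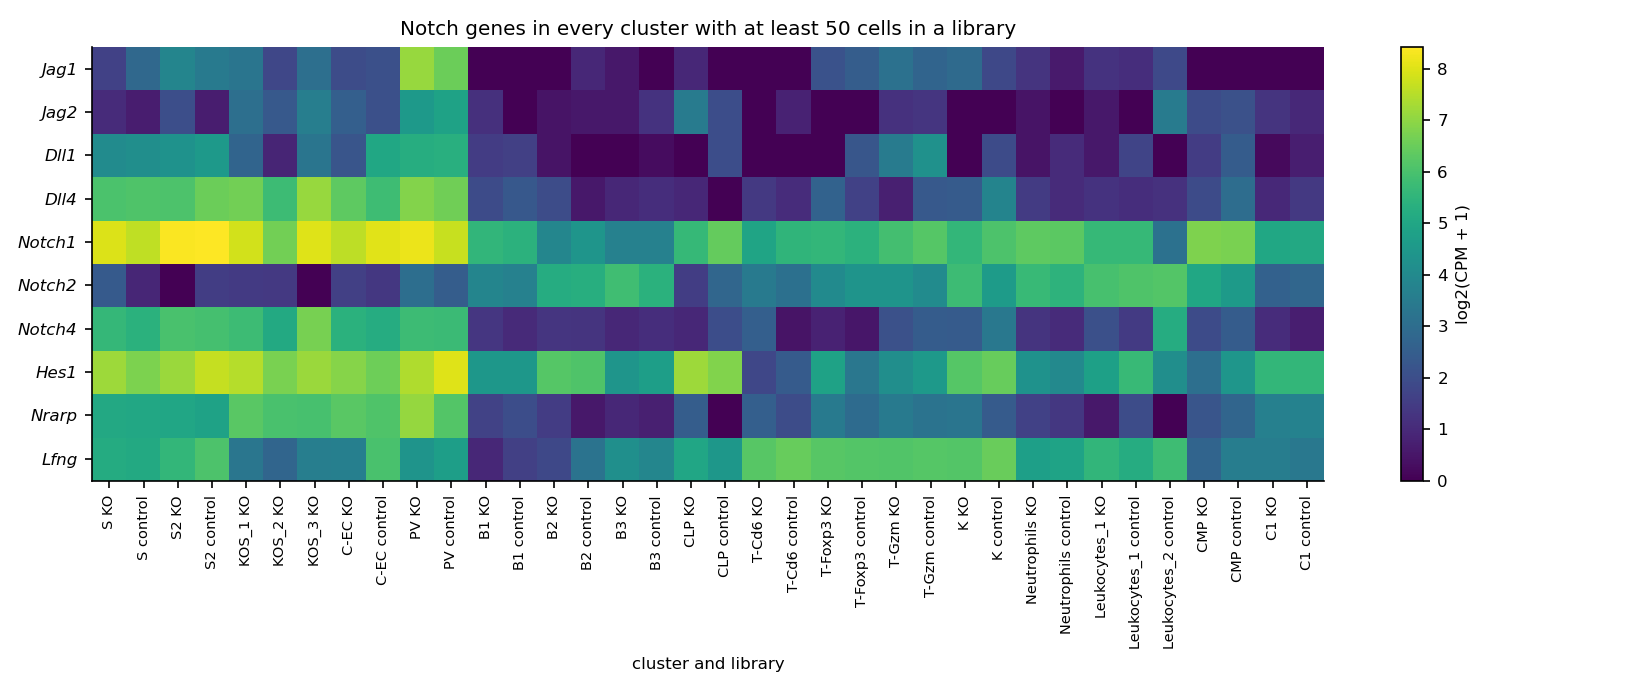
Heat map of log2(CPM + 1) for the 10 Notch genes (rows) in every cluster with at least 50 cells in a library, clusters D and H left out (columns, c-Maf KO left of control). KOS_1 to KOS_3 reached 50 cells in c-Maf KO alone, and Leukocytes_2 in control alone. Jag1 is brightest in PV, Dll4, Notch4 and Nrarp in the endothelial clusters on the left, Notch2 in hematopoietic clusters, and Lfng dims in the KOS and c-Maf KO C-EC columns.

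Of 51 other genes of the pathway, 38 had at least 50 UMIs in endothelial cells. The size rule called 2 of them higher and 8 lower, where it called 14.2% of all tested genes higher and 15.5% lower, and their median log2 ratio was -0.30 against -0.08 over all tested genes. The log2 ratio was below 0 for 29 of the 38 and above 0 for 9. The same split was not counted over all tested genes. Signs near 0 depend on the scaling: with median-of-ratios factors the log2 ratio of Notch4, for example, moved from -0.07 to 0.03. Among genes that act in the ligand-sending cell, the E3 ligase gene Neurl1a stood at 2.92 CPM in c-Maf KO (66 UMIs) and 0.431 CPM in control cells (7 UMIs). Its relative Neurl1b stood at 3.40 CPM in c-Maf KO and 1.91 CPM in control endothelial cells. C-EC cells held 57 of its 77 c-Maf KO UMIs and 20 of its 31 control UMIs, and within C-EC it was lower, at 16.3 CPM in c-Maf KO and 31.4 CPM in control. Neurl3, of the same family, was lower, at 24.0 CPM in c-Maf KO and 51.5 CPM in control. Mib2, an E3 ligase gene of the Mind bomb family, was lower too, at 8.62 and 13.6 CPM. Dlk1, a non-canonical ligand, had 0 UMIs in c-Maf KO and 67 in control endothelial cells, of which 66 lay in PV cells and 50 of those in 1 cell. Without that cell it would fall under the minimum of 50 UMIs.

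Among genes that act in the receiving cell, genes of the gamma-secretase complex were lower. Ncstn stood at 58.1 CPM in c-Maf KO and 103.9 CPM in control, and Psen2 at 77.7 and 125 CPM. The calls of Mib2 and Psen2 were lost with median-of-ratios factors. Numb, an inhibitor of Notch, stood at 77.8 CPM in c-Maf KO and 136 CPM in control cells, and the acetyltransferase gene Kat2b at 30.7 and 49.9 CPM. In C-EC, the receptor glucosyltransferase gene Poglut1 (17.1 CPM in c-Maf KO, 31.4 CPM in control), Neurl3 (13.7 and 51.8 CPM) and Numb (65.6 and 111 CPM) were lower beside Neurl1b. These were 4 of the 30 other pathway genes with at least 50 UMIs in C-EC, and 0 were called higher. Of all 7961 tested C-EC genes, the size rule called 14.6% lower and 5.7% higher. In PV, Neurl3 (60.9 CPM in c-Maf KO, 27.6 CPM in control), Ncstn (77.0 and 43.8 CPM) and Fbxw7 (51.0 and 16.1 CPM), whose product marks the Notch intracellular domain for degradation, were higher. The control values of these 3 genes in PV rested on 12, 19 and 7 UMIs. Hey1, an endothelial Notch target, was lower in PV, at 33.1 CPM in c-Maf KO and 69.1 CPM in control on 37 and 30 UMIs. Of the 21 other pathway genes with at least 50 UMIs in PV, 3 were called higher and 2 lower (Hey1 and Dlk1). Of all 5063 tested PV genes, the size rule called 6.08% higher and 6.26% lower. In all endothelial cells Hey1 stood at 2.52 CPM in c-Maf KO and 2.77 CPM in control. Hey2 had 2 and 1 UMIs, Heyl 4 and 5, and Notch3, a receptor of mural cells, 2 and 1, c-Maf KO before control. Rbpj, the nuclear partner of the receptors, stood at 32.8 CPM in c-Maf KO and 38.2 CPM in control (log2 ratio -0.22). The Fringe gene Mfng stood at 52.5 CPM in c-Maf KO and 36.3 CPM in control (log2 ratio 0.53, interval 0.39 to 0.68), short of the 1.5-fold call, and Rfng at 6.94 and 8.62 CPM.

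**Figure D5:**
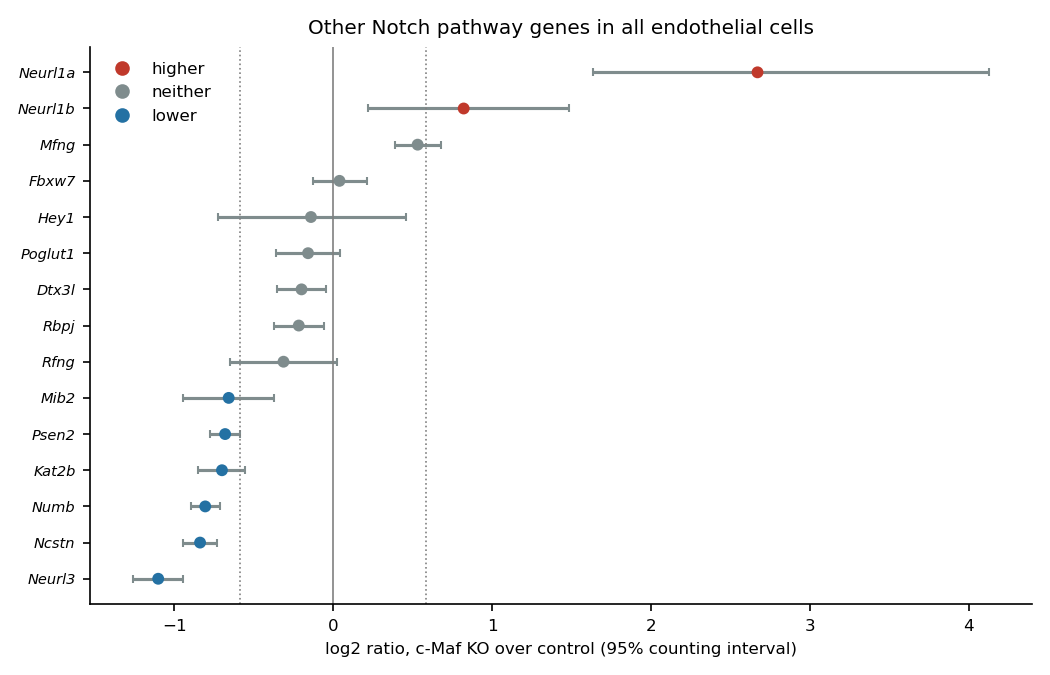
Ratio of the c-Maf KO to the control level on a log2 scale with exact 95% counting intervals (x axis) for 15 of the 38 other Notch pathway genes with at least 50 UMIs in all endothelial cells, those named in the text, called higher in red and lower in blue, with dotted lines at 1.5-fold. Dlk1, with 0 UMIs in c-Maf KO, is not drawn, and 11 of the 15 genes sit below 0, with a range from -1.10 for Neurl3 to 2.67 for Neurl1a.

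Over the 36 cluster-library units, the genes most like each member were found by Pearson correlation of log2(CPM + 1) among 11995 genes with at least 200 UMIs. The units share libraries and free RNA, so the coefficients are a description. Dll4 was most like Tns2 (0.972), Sema3f and Nos3, and Notch4 most like Ece1 (0.965), with Gpr4 also among its first 3. Nrarp was most like Actn4 (0.923), Sox18 and Kitl, Dll1 most like Zfpm2 (0.866), Depp1 and Fam8a1, and Hes1 most like Wwc2 (0.903), with Cgrrf1 also among its first 3. Notch1 was most like Zfp503 (0.908), with Agrn also among its first 3, and Notch2 most like Il10ra (0.923), Cyba and Cdc42se1. Jag1 was most like Samd12 (0.862), Synpo and Efnb1, Jag2 most like Prnp (0.785), Ajuba and Dnm3, and Lfng most like Rab8b (0.801), Gbp2 and Lcp2. None of the 30 pairs, 3 for each member, was among the pairs found over the 11 endothelial units alone.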

How the data were processed

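Droplet single-cell RNA libraries were made from sorted liver cells, per the labels' protocols, which also name bulk RNA kits. The authors deposited whole-number UMI count tables of 32285 genes per barcode and 1 annotation of cells with 23 clusters, per the file headers. The submitters' processing notes list the build mm10 and the tools Cell Ranger 4.0.0, FastQC 0.11.3 and Seurat 3.2.3, and the sources used here state no alignment settings. The count tables hold no strand information, so reads of overlapping or antisense genes could not be separated.

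UMI counts were summed per annotated class and library and divided by total UMIs (Python 3.11.15, pandas 2.3.3, SciPy 1.17.1). The 5 clusters S, S2, KOS_1, KOS_2 and KOS_3 formed the sinusoidal class, and C-EC and PV a class each. The 95% intervals are exact: Poisson for levels, Clopper-Pearson for shares and conditional binomial for ratios, and log2 ratios had 0.5 UMI added to each sum. A sum of 0 was read against a floor of 3 counts. With 1 library per group no p-value was computed. The ratio and interval step was tested on simulated Poisson sums, which follow the counting error that the intervals assume. The simulated sums held no spread between cells or mice, so that check does not cover such spread. Scrublet (Scanpy 1.11.5) gave no usable automatic threshold. The cells above the 95th percentile of its score in each library (408 c-Maf KO and 366 control) were therefore removed as an alternative only. TMM factors came from edgeR 4.0.16. The other alternatives changed the scaling, the UMI minimum, the fold, the depth and weight of cells, the classes and the pooled mice.

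The genes named are the 10 members, the other pathway genes called in all endothelial cells, C-EC or PV, 6 further pathway genes (Hey1, Hey2, Heyl, Rbpj, Notch3 and Mfng) and the 3 genes most like each member. Rfng was added to complete the Fringe genes. A few genes that this rule names are not reported here. The members and lists were chosen with earlier results of these data known.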

Additional observations from a re-analysis of the deposited data

Results flagged for a closer look

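Some log2 ratios, c-Maf KO over control, had opposite signs in different cells of the same libraries, with each interval excluding equality. The differences themselves were not tested. Notch1 had 0.47 in PV cells, against -0.44 in sinusoidal and -0.46 in C-EC cells. Neurl3 had 1.09 in PV cells, against -1.14 in sinusoidal and -1.93 in C-EC cells. Ncstn had 0.79 in PV cells and -0.88 in sinusoidal cells. PV is the smallest class, with 135 c-Maf KO and 56 control cells.

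Among female-type endothelial cells Hes1 had 0.29, against -0.85 among male-type cells. Dtx3l, an E3 ligase gene of the pathway list, had 0.50 among the first and -0.84 among the second. Each type is 1 mouse per genotype.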

How the results depend on the processing

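Dll1, Nrarp and Lfng kept their calls in all endothelial cells under 14 of 14 alternatives, with log2 ratios from -1.83 to -0.90, from 0.80 to 1.32 and from -2.58 to -1.90. Jag2 kept its direction in all 14 (1.47 to 3.71) and its call in 12. It lost the call with each cell thinned and among male-type cells. The minimum of 200 UMIs, which is not among the 14, removed the call as well. The count of members called higher was 1, Nrarp alone, with a minimum of 200 UMIs and with each cell thinned, where Jag2 fell under the minimum. Jag1 was called higher among male-type cells and without cells with a cycling marker, and Hes1 lower among male-type cells. Of the other pathway genes, 4 were called higher with median-of-ratios factors (Mfng among those added) and 6 lower (Mib2 and Psen2 lost), and at 2-fold 1 was called higher (Neurl1a) and 2 lower (Dlk1 and Neurl3). In C-EC, 1 member was higher with median-of-ratios factors (Dll4) and 2 were lower with no minimum (Dll1 and Lfng). In PV, 0 members were lower with median-of-ratios factors and 0 without likely doublets, as Hes1 lay at the threshold. In PV, 1 was higher (Nrarp) without cells with other cells' markers, an alternative chosen after seeing the data. No log2 ratio of a member called in all endothelial cells or in PV changed sign under the alternatives run there, and those of other classes were not recomputed. No paired analysis was possible because each group is 1 library. PV and C-EC values are limited by depth: 3 members in PV and 4 in C-EC had fewer than 50 UMIs.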
